A study of Mus musculus with 9 samples.

Results

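The adult haemoglobin genes of the mouse were followed in muscle RNA: the alpha-globin copies Hba-a1 and Hba-a2, the beta-globin copies Hbb-bs, Hbb-bt, Hbb-b1 and Hbb-b2, and Alas2, the gene of the red cell lineage's own first enzyme of haem synthesis. They were taken by symbol, 7 of 15593 symbols in the deposited table, and their 9 records of 46442 were summed for each symbol. All 7 were among the 15372 symbols tested. The genes were chosen on measured levels of these same libraries, seen in an earlier pass over the table. Their levels, shares and fold changes are therefore given as a description, without p-values. How many of them passed the test over all symbols is given later, and nothing is read from it.

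The samples were gastrocnemius, a calf muscle, from mdx mice dosed subcutaneously with 10 mg/kg of GTx-026, mdx mice given vehicle and wildtype mice given vehicle, with 3 libraries in each group. mdx mice have a mutated Dmd, the dystrophin gene, and serve as a model of Duchenne muscular dystrophy. GTx-026 belongs, by the title of the study, with agonists of the androgen receptor. Every library, mdx and wildtype, carries the strain label C57BL/6, and neither age nor sex is given in the labels used here. No label links a library to an animal, so the errors reflect spread between libraries, which may be partly technical, and a library number is a name that pairs nothing across groups.

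Haemoglobin is a tetramer of alpha and beta chains, each with a haem group, and it is made in red cell precursors and in reticulocytes, the young red cells that still carry mRNA. Globin mRNA in a muscle extract is therefore usually taken as blood left in the tissue. Inbred mice carry different versions of the adult beta-globin locus. Hbb-bs and Hbb-bt are the gene pair of the single haplotype, the version of C57BL/6, while Hbb-b1 (beta-major) and Hbb-b2 (beta-minor) are the pair of the diffuse haplotype, known from strains such as BALB/c and DBA/2. Androgens are known to stimulate red cell production.

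On GRCm38.p6, the RefSeq assembly used for annotation, Hbb-bs lies on chromosome 7 from 103826523 to 103827928 and Hbb-bt from 103812524 to 103813923. Hba-a1 is on chromosome 11 from 32283672 to 32284486, Hba-a2 on the same chromosome from 32296492 to 32297310, and Alas2 on chromosome X from 150547417 to 150570622. RefSeq places Hbb-b1 and Hbb-b2 on another sequence assigned to chromosome 7, and GENCODE M21 lists neither among the genes of the reference chromosomes. The processing notes name GRCm38.p3, so these positions serve only to locate the genes. The 120 bases before the RefSeq start (GRCm38.p6) are shown for 1 alpha copy, both beta copies of the single haplotype and Alas2, to let the promoters of genes that share a tissue be compared. They run 5′ to 3′ on the gene's strand, and capitals mark 4 motifs known from globin promoters on either strand: the CACCC box, the CCAAT box, the TATA-like letters ATATAA and the GATA-factor letters GATAA.
Hbb-bs chr7:103827929-103828048 (minus strand): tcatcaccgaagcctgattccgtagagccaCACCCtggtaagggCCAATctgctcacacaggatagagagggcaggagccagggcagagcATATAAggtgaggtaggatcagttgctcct
Hbb-bt chr7:103813924-103814043 (minus strand): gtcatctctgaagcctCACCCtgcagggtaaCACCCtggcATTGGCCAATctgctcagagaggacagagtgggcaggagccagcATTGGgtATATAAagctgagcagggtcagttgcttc
Hba-a1 chr11:32283552-32283671 (plus strand): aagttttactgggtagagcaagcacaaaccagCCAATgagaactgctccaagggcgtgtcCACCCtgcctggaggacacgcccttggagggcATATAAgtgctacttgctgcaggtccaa
Alas2 chrX:150547297-150547416 (plus strand): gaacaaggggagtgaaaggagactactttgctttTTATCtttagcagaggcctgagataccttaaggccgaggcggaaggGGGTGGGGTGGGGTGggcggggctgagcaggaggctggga

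The globin promoters had the letters ATATAA at nearly the same place: 30 bases before the start in Hbb-bs, 29 in Hbb-bt, 28 in Hba-a1 and 31 in Hba-a2. Each also held a CCAAT box and at least 1 CACCC box within the 120 bases. The CACCC box, bound by the red cell factor KLF1, stood 90 bases before the start in Hbb-bs and 89 and 104 in Hbb-bt. Alas2 had neither the TATA-like letters nor a CCAAT box in this window. It had 3 adjoining CACCC boxes on the minus strand, the nearest 30 bases before the start, and the GATA-factor letters 86 bases before it on the same strand. In Hbb-bt a forward and a reverse CCAAT adjoin and together make the longest run of capitals in its line. These letters are common. Over the 250 bases before the start, on either strand, the CACCC box occurred in 52.0% of 32851 RefSeq promoters, the CCAAT box in 33.8%, the GATA-factor letters in 22.6% and the TATA-like letters in 9.10%. The Hba-a1 and Hba-a2 promoters had the same letters at 247 of 247 positions when shifted by 3 bases. Hbb-bs and Hbb-bt matched at 127 of 249 positions without gaps. RefSeq entries were found for 5 of the 7 genes, and Hbb-b1 and Hbb-b2 had none in the table used.

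The copies are also alike in their transcripts, which bears on how far their reads can be told apart. Of all stretches of 50 bases in the GENCODE M21 transcripts, 57.5% of those of Hbb-bs also occur in Hbb-bt and 58.3% of those of Hbb-bt occur in Hbb-bs. For the alpha copies, 67.5% of the stretches of Hba-a1 were shared with Hba-a2 and 86.9% of those of Hba-a2 with Hba-a1. Alas2 shared 0 of 2034 stretches with any other gene. Hbb-b1 and Hbb-b2 are not among the GENCODE M21 genes, so their likeness to each other and to Hbb-bs and Hbb-bt was not measured. How reads that match several copies were counted is not stated in what was used here. The level of a single copy is therefore less certain than a sum of copies. Alas2 has no such overlap with another gene, but its level sums 2 records. These had equal values in mdx GTx-026 library 1 and wildtype vehicle library 3 and unequal values in the others. Whether the same reads were counted in both records was not tested.

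Levels are given as CPM, reads for every M (mega) listed reads of a library after rescaling. They are not divided by gene length, and the 4 beta copies have nearly equal gene spans of 1374 to 1406 bases. The libraries held 25.1 M to 38.0 M listed reads, of which an estimated 7014 to 46351 were globin reads and 57 to 281 were Alas2 reads. The Alas2 estimate sums both of its records. The mdx vehicle library 1 stood apart, with a median correlation of 0.945 with its own group over all symbols, against 0.959 to 0.983 for the others. It also had 112 CPM of the lymphocyte surface gene Cd52, against 0.990 to 37.6 CPM elsewhere. The beta-globin copies went against the strain label in part: in 5 of the 6 mdx libraries the leading copy was Hbb-b1, of the diffuse haplotype, and not Hbb-bs, the copy known from C57BL/6. Dmd ran from 14.1 to 17.9 CPM in mdx GTx-026, from 11.6 to 21.8 CPM in mdx vehicle and from 41.2 to 60.4 CPM in wildtype vehicle, with both mdx groups below wildtype. The summed level of 10 skeletal muscle genes ran from 133804 to 219458 CPM in mdx GTx-026, 126916 to 170243 CPM in mdx vehicle and 175885 to 222032 CPM in wildtype vehicle.

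Globin mRNA as a whole differed widely between libraries of the same group. All 6 globin copies summed to 701, 1455 and 649 CPM in mdx GTx-026 libraries 1 to 3, to 218, 555 and 506 CPM in mdx vehicle and to 403, 315 and 920 CPM in wildtype vehicle. The means were 935 ± 451, 426 ± 182 and 546 ± 327 CPM (SD, n = 3 each). As a share of all listed reads this was 0.0628% to 0.158% in mdx GTx-026, 0.0280% to 0.0521% in mdx vehicle and 0.0274% to 0.0828% in wildtype vehicle. Only the mdx GTx-026 and mdx vehicle libraries did not overlap. The difference of those groups was 1.14 on the log2 scale (SE 0.57, from the spread of 3 libraries in each), and without mdx vehicle library 1 it was 0.72. Between mdx vehicle and wildtype vehicle the log2 difference was −0.31 (SE 0.63), and it turned to 0.12 without mdx vehicle library 1 and to 0.15 without wildtype vehicle library 3. Between mdx GTx-026 and wildtype vehicle it was 0.83 (SE 0.60), with overlapping groups. In whole muscle, fewer red cells and less globin mRNA per cell cannot be told apart.

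The alpha chain genes gave the same picture as that total. Hba-a1 had 162, 385 and 201 CPM in mdx GTx-026, 64.3, 142 and 129 CPM in mdx vehicle and 119, 96.5 and 295 CPM in wildtype vehicle. Hba-a2, which encodes the same kind of chain from the neighbouring copy, had 130.1, 282 and 149 CPM in mdx GTx-026, 39.6, 109.7 and 102 CPM in mdx vehicle and 94.1, 72.0 and 225 CPM in wildtype vehicle. For both copies, every mdx GTx-026 library was above every mdx vehicle library, and wildtype vehicle spanned parts of both ranges. The fold changes of mdx GTx-026 against mdx vehicle were 1.13 (SE 0.47) for Hba-a1 and 1.19 (SE 0.50) for Hba-a2 on the log2 scale. Against wildtype vehicle, the log2 fold changes of Hba-a1 and Hba-a2 were 0.63 and 0.61 in mdx GTx-026 and −0.50 and −0.59 in mdx vehicle. Hba-a1 supplied a steady part of the alpha reads, 55.5% to 57.7% in mdx GTx-026, 55.9% to 61.9% in mdx vehicle and 55.9% to 57.3% in wildtype vehicle. The value of 61.9% was that of mdx vehicle library 1.

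**Figure D1:**
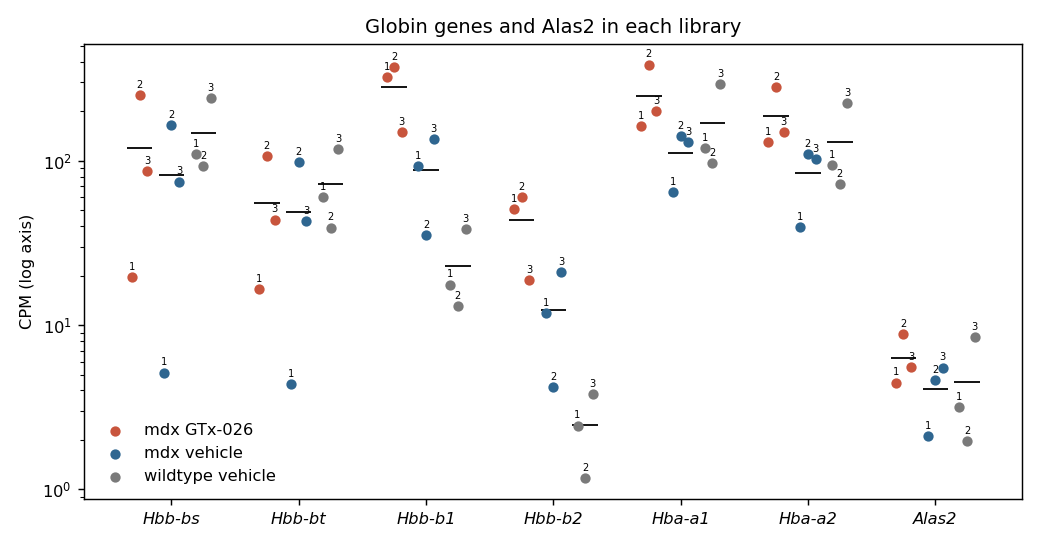
CPM of each gene on a log axis in the 9 libraries, with the library number above each point and a line at the group mean. Hba-a1, Hba-a2 and Alas2 are highest in mdx GTx-026 library 2 and low or lowest in mdx vehicle library 1, while Hbb-b1 and Hbb-b2 are lowest on average in wildtype vehicle and Hbb-bs and Hbb-bt are lowest in library 1 of each mdx group.

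The beta copies did not behave alike. Hbb-bs, the main adult beta gene of the single haplotype, had 19.5, 251 and 86.5 CPM in mdx GTx-026, 5.14, 165 and 74.8 CPM in mdx vehicle and 109, 93.2 and 240.0 CPM in wildtype vehicle. Its partner Hbb-bt had 16.5, 106 and 43.9 CPM in mdx GTx-026, 4.36, 98.5 and 42.8 CPM in mdx vehicle and 59.9, 39.2 and 118 CPM in wildtype vehicle. For both genes the lowest values were those of library 1 of mdx vehicle and library 1 of mdx GTx-026, below every wildtype vehicle library. Of the libraries numbered 2, that of mdx vehicle lay inside the wildtype range for both genes, and that of mdx GTx-026 was above it for Hbb-bs and inside it for Hbb-bt. Library 3 of each mdx group was below the wildtype range for Hbb-bs and inside it for Hbb-bt.

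Hbb-b1, the beta-major gene of the diffuse haplotype, had 322, 370.3 and 149.7 CPM in mdx GTx-026, 93.1, 35.5 and 136 CPM in mdx vehicle and 17.6, 13.1 and 38.4 CPM in wildtype vehicle. Hbb-b2, the beta-minor gene, had 51.0, 60.3 and 18.8 CPM in mdx GTx-026, 11.9, 4.21 and 20.9 CPM in mdx vehicle and 2.45, 1.17 and 3.81 CPM in wildtype vehicle. Every mdx GTx-026 library was above every wildtype library for both genes. In mdx vehicle, library 2 was close to the wildtype range for both, and its Hbb-b1 value lay inside that range. Hbb-b1 averaged 281 ± 116, 88.2 ± 50.4 and 23.0 ± 13.5 CPM in mdx GTx-026, mdx vehicle and wildtype vehicle, and Hbb-b2 averaged 43.4 ± 21.8, 12.3 ± 8.37 and 2.48 ± 1.32 CPM (SD, n = 3 each).

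As log2 fold changes, Hbb-b1 and Hbb-b2 were 3.59 (SE 0.54) and 3.59 (SE 0.57) in mdx GTx-026 against wildtype vehicle. In mdx vehicle against wildtype vehicle they were 1.83 and 1.78, and in mdx GTx-026 against mdx vehicle 1.75 and 1.81. Hbb-bs and Hbb-bt had opposite signs in the comparisons with wildtype, at −0.82 and −0.60 in mdx GTx-026 and −1.67 and −1.21 in mdx vehicle, with SEs of 1.18 and 1.00. The 3 comparisons share groups, and each value stands on its own. For a single beta copy, a difference in which version of the locus the mice carried and a difference in expression cannot be told apart.

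The combined share of Hbb-b1 and Hbb-b2 was higher in every mdx library than in every wildtype library, but the mdx groups were mixed. Hbb-b1 and Hbb-b2 together made up 91.2%, 54.6% and 56.4% of the beta reads in mdx GTx-026 libraries 1 to 3, 91.7%, 13.1% and 57.1% in mdx vehicle, and 10.6%, 9.73% and 10.5% in wildtype vehicle. The means were 67.4% ± 20.6, 54.0% ± 39.4 and 10.3% ± 0.482 (SD, n = 3 each). The wildtype libraries lay within 1 percentage point of each other, and each mdx group covered a far wider range. A library of mdx GTx-026 and a library of mdx vehicle were both near 91%, 3 mdx libraries from both groups were between 54.6% and 57.1%, and mdx vehicle library 2 was the nearest to wildtype. Without mdx vehicle library 1, the mdx vehicle mean was 35.1%.

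**Figure D2:**
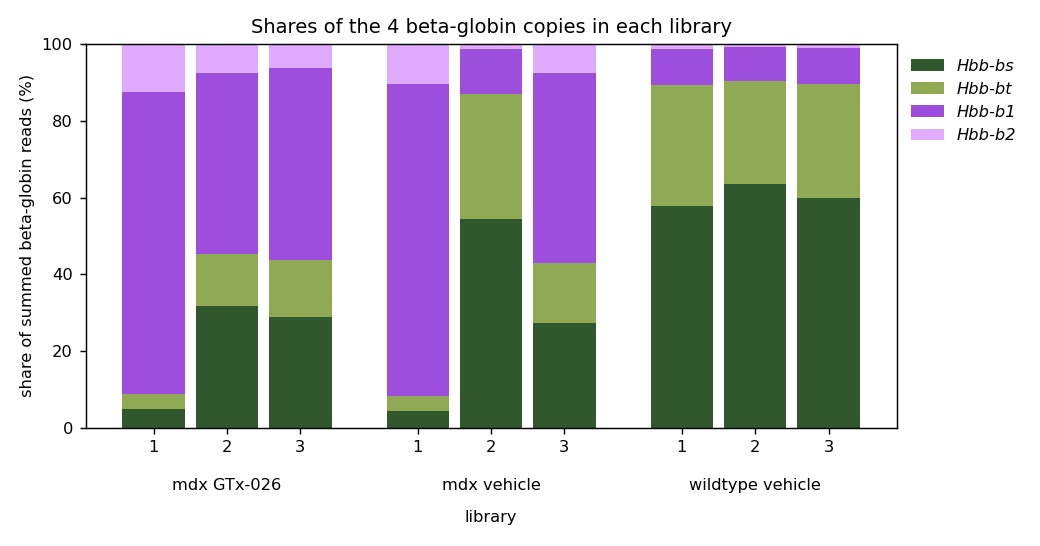
Share of each beta-globin copy in the summed beta reads (%), as stacked bars for the 9 libraries. Hbb-b1 and Hbb-b2 (violet) take 9.73% to 10.6% in wildtype vehicle and between 13.1% and 91.7% in the mdx libraries, with both mdx groups spread over that range.

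Taken copy by copy, Hbb-bs was the leading copy in wildtype vehicle, at 57.8%, 63.5% and 59.9%, and in mdx vehicle library 2, at 54.4%. In the other mdx libraries Hbb-b1 led, at 78.7%, 47.0% and 50.1% in mdx GTx-026 and at 81.3% and 49.5% in mdx vehicle libraries 1 and 3. Hbb-bt followed Hbb-bs, with 4.04%, 13.5% and 14.7% in mdx GTx-026, 3.81%, 32.5% and 15.6% in mdx vehicle and 31.6%, 26.7% and 29.5% in wildtype vehicle. Hbb-b2 ran from 6.28% to 12.5% in mdx GTx-026, from 1.39% to 10.4% in mdx vehicle and from 0.798% to 1.29% in wildtype vehicle.

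The ratios within each pair also varied. Hbb-b2 was 12.5% to 16.3% of Hbb-b1 in mdx GTx-026, 11.9% to 15.4% in mdx vehicle and 8.92% to 13.9% in wildtype vehicle. Hbb-bt was 84.5%, 42.4% and 50.7% of Hbb-bs in mdx GTx-026, 84.8%, 59.7% and 57.2% in mdx vehicle and 54.7%, 42.0% and 49.3% in wildtype vehicle. The highest ratios of Hbb-bt to Hbb-bs were in the same library of each mdx group where that pair held under 9% of the beta reads. Whether the smaller pair's reads in a library come from its own mRNA or from reads of the other pair was not tested. Hbb-b2 and Alas2 each had 2 records in the table. With only the higher record of each symbol, Hbb-b1 and Hbb-b2 still held 90.8%, 53.4% and 55.5% of the beta reads in mdx GTx-026, 91.4%, 12.5% and 56.0% in mdx vehicle and 10.1%, 9.42% and 10.1% in wildtype vehicle.

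The summed beta level did not follow the shares. All 4 beta copies summed to 409, 788 and 299 CPM in mdx GTx-026, 114, 303 and 274 CPM in mdx vehicle and 189, 147 and 400.5 CPM in wildtype vehicle. The 2 libraries near 91% for Hbb-b1 and Hbb-b2 had the second highest and the lowest sum. The log2 difference of the summed beta level was 1.11 (SE 0.61) in mdx GTx-026 against mdx vehicle, −0.07 (SE 0.62) in mdx vehicle against wildtype vehicle and 1.03 (SE 0.60) in mdx GTx-026 against wildtype vehicle. The groups overlapped in each.

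Summed alpha and summed beta agreed on which libraries were high and low, with some shifts in the middle. Alpha summed to 292, 667 and 350.0 CPM in mdx GTx-026, 104, 252 and 232 CPM in mdx vehicle and 213, 169 and 520 CPM in wildtype vehicle. Both sums were highest in mdx GTx-026 library 2 and lowest in mdx vehicle library 1, with wildtype vehicle libraries 2 and 1 next above the lowest. In the upper part, mdx GTx-026 library 1 was second for beta but, for alpha, stood below wildtype vehicle library 3 and mdx GTx-026 library 3. The log2 difference of summed alpha was 1.16 (SE 0.54) in mdx GTx-026 against mdx vehicle, with no overlap, −0.54 (SE 0.64) in mdx vehicle against wildtype vehicle and 0.62 (SE 0.61) in mdx GTx-026 against wildtype vehicle.

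The balance of alpha and beta in mdx vehicle did not overlap that in wildtype vehicle. The log2 ratio of summed alpha to summed beta was −0.48, −0.24 and 0.23 in mdx GTx-026, −0.14, −0.27 and −0.25 in mdx vehicle and 0.17, 0.20 and 0.38 in wildtype vehicle. The mdx vehicle libraries were all below 0 and the wildtype libraries all above it, while mdx GTx-026 had values on both sides. With the higher record alone the ratios were −0.42, −0.20 and 0.26 in mdx GTx-026, −0.09, −0.26 and −0.21 in mdx vehicle and 0.18, 0.21 and 0.38 in wildtype vehicle. Within mdx vehicle the ratio rose in the order of the share of Hbb-b1 and Hbb-b2. There, library 2, at 13.1%, had −0.27, library 3, at 57.1%, had −0.25, and library 1, at 91.7%, had −0.14. Across groups, by contrast, the wildtype libraries, at 9.73% to 10.6%, had ratios above 0, and mdx GTx-026 library 1, at 91.2%, had the lowest, −0.48. Against that order, mdx GTx-026 library 3, at 56.4%, had 0.23. A link of ratio and share over the 9 libraries was not tested. Any part of reads that match several beta copies, counted more than once, in this ratio was not tested.

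**Figure D3:**
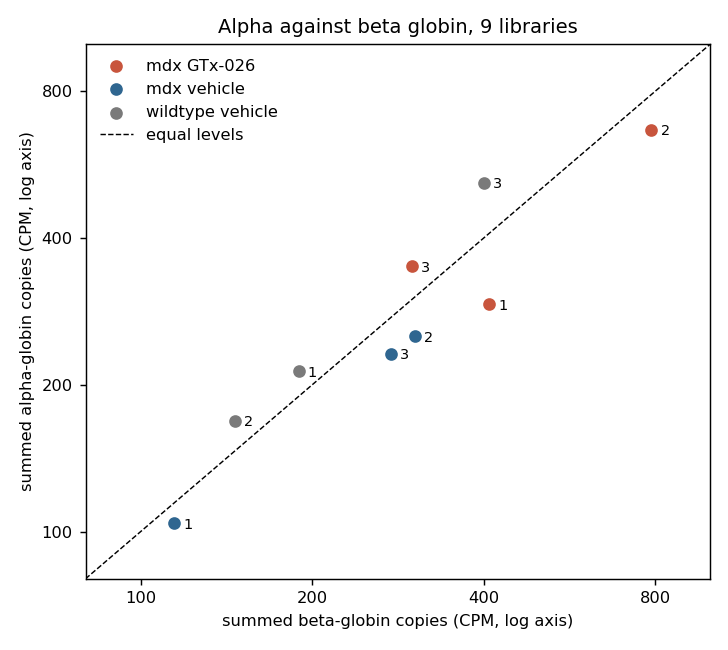
Summed alpha against summed beta (CPM, both axes log), 1 point for each of the 9 libraries with its number, and a dashed line where both are equal. The wildtype vehicle libraries and mdx GTx-026 library 3 lie above the line, the mdx vehicle libraries and mdx GTx-026 libraries 1 and 2 below it.

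Alas2 went with the alpha copies and the total. It had 4.47, 8.82 and 5.53 CPM in mdx GTx-026, 2.12, 4.62 and 5.51 CPM in mdx vehicle and 3.17, 1.96 and 8.43 CPM in wildtype vehicle. Its highest values were in mdx GTx-026 library 2 and wildtype vehicle library 3, the libraries with the most globin, and its lowest in wildtype vehicle library 2 and mdx vehicle library 1, those with the least. The groups overlapped in every comparison, with log2 fold changes of 0.54, −0.01 and 0.53 in mdx GTx-026 against mdx vehicle, mdx vehicle against wildtype vehicle and mdx GTx-026 against wildtype vehicle (SE 0.43 each). Relative to all globin reads, Alas2 stayed within 0.606% to 0.852% in mdx GTx-026, 0.833% to 1.09% in mdx vehicle and 0.622% to 0.916% in wildtype vehicle.

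Over the 9 libraries, on the log2(CPM + 1) scale, the correlation with summed globin was 0.98 for Hba-a1 and for Hba-a2 and 0.93 for Alas2. It was 0.68 for Hbb-bt, 0.65 for Hbb-bs, 0.52 for Hbb-b1 and 0.51 for Hbb-b2. These are descriptions, since the copies are part of the sum and all points share the library scaling. Among 10337 other genes at 5 CPM or more on average, the 8 most like summed globin by this measure were Clybl (0.959), Cdc42ep2 (0.945), Atad3a (0.942), Slc29a2 (0.939), Timp4 (0.928), 2300009A05Rik (0.910), Smtn (0.908) and Atp5g2 (0.905). Timp4, an inhibitor of matrix metalloproteinases, had 15.0 to 26.9 CPM in mdx GTx-026, 3.89 to 15.3 CPM in mdx vehicle and 8.00 to 21.1 CPM in wildtype vehicle. The nucleoside carrier Slc29a2 ran from 6.37 to 8.72 CPM in mdx GTx-026, 3.74 to 7.38 CPM in mdx vehicle and 4.47 to 8.65 CPM in wildtype vehicle. None of the 8 was a gene of the red cell lists described next.

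Read against the whole table, few genes passed the test between the mdx groups. With limma and Benjamini-Hochberg adjustment over 15372 symbols at 0.05, 2 symbols (0.013%) passed in mdx GTx-026 against mdx vehicle, 53 (0.345%) in mdx vehicle against wildtype vehicle and 240 (1.56%) in mdx GTx-026 against wildtype vehicle. Of the 7 genes, 0, 0 and 2 were among them, the 2 being Hbb-b1 and Hbb-b2 in mdx GTx-026 against wildtype vehicle. At an unadjusted p under 0.05 the counts over all symbols were 472, 1952 and 1940. Groups without overlap were seen for 3 of the 7 genes in mdx GTx-026 against mdx vehicle (Hbb-b1, Hba-a1 and Hba-a2), where 6.89% of all symbols had none. The count was 1 of 7 in mdx vehicle against wildtype vehicle (Hbb-b2), where it was 16.4%, and 2 of 7 in mdx GTx-026 against wildtype vehicle (Hbb-b1 and Hbb-b2), where it was 20.9%. Since the genes were chosen with these values known, nothing is read from the counts.

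Few other genes of haem and red cell biology passed the test. Of 14 haem synthesis genes, all tested, Alad was the only one to pass in any comparison. Alad, the enzyme of the second step of haem synthesis, had 40.7, 50.8 and 52.9 CPM in mdx GTx-026, 33.0, 47.9 and 44.5 CPM in mdx vehicle and 24.5, 24.4 and 26.2 CPM in wildtype vehicle. Every mdx library was above every wildtype library. Alad rose in mdx GTx-026 against wildtype vehicle by 0.91 on the log2 scale (SE 0.17, limma adjusted p = 0.0318, higher in 3 of 3 libraries). The call was lost when any library of those 2 groups was left out, with adjusted p from 0.0115 to 0.121 over 15 alternatives. In mdx vehicle against wildtype vehicle its log2 fold change was 0.70 (adjusted p = 0.149).

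Alas1, the first enzyme of the pathway in tissues other than red cells, had 101 to 116 CPM in mdx GTx-026, 62.3 to 105 CPM in mdx vehicle and 89.2 to 121 CPM in wildtype vehicle. The mitochondrial iron carrier Slc25a37 had log2 fold changes of −0.31 in mdx GTx-026 against mdx vehicle and 0.47 in mdx vehicle against wildtype vehicle, and Cpox had −0.23 in mdx GTx-026 against wildtype vehicle. The median log2 fold change of the 14 genes was 0.13 in mdx GTx-026 against mdx vehicle, −0.19 in mdx vehicle against wildtype vehicle and 0.00 in mdx GTx-026 against wildtype vehicle, beside medians over all tested symbols of −0.01, 0.01 and −0.01. At an unadjusted p under 0.05 the counts of these 14 genes were 0, 3 and 1, where the shares over all symbols were 3.07%, 12.7% and 12.6%.

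Of 19 genes of red cell structure, 6 were tested and 0 passed in any comparison, and 0 had an unadjusted p under 0.05. The anion exchanger Slc4a1, a defining membrane protein, was at the low end and had 0.789 to 1.19 CPM in mdx GTx-026, 0.623 to 0.934 CPM in mdx vehicle and 0.516 to 0.793 CPM in wildtype vehicle. Most of the list's summed level came from the membrane skeleton genes Ank1 and Sptb, which skeletal muscle is known to express as well. Against wildtype vehicle, the log2 fold changes of Ank1 were −0.41 in mdx GTx-026 and −0.43 in mdx vehicle, and those of Sptb −0.16 and −0.36. Gypc was 0.29 in mdx GTx-026 against mdx vehicle, and Bpgm −0.38 in mdx GTx-026 against wildtype vehicle.

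Of 10 regulators of red cell development 4 were tested, and of 7 iron uptake genes 6. In both lists 0 passed in any comparison, also at an unadjusted p under 0.05. Among the regulators Lyl1 had 4.35 to 5.81 CPM in mdx GTx-026, 2.84 to 17.5 CPM in mdx vehicle and 2.16 to 6.62 CPM in wildtype vehicle, the highest value being that of mdx vehicle library 1. In that library Lmo2, at 21.0 CPM, and Ldb1, at 62.5 CPM, were also above all others. The transferrin receptor Tfrc, which brings iron into red cell precursors and other cells, had log2 fold changes of 0.30 in mdx GTx-026 against mdx vehicle and −0.16 in mdx vehicle against wildtype vehicle. Transferrin, Trf, had 0.51 and 0.06, with 6.31 to 40.7 CPM in mdx vehicle alone. Slc11a2, an iron transporter, was at −0.14 in mdx vehicle against wildtype vehicle, and the iron sensor Ireb2 at −0.22 in mdx GTx-026 against wildtype vehicle.

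Of 11 genes that clear free haemoglobin and haem 10 were tested, and 0 passed in any comparison. Log2 fold changes were above 0 for 8 of the 10 in mdx GTx-026 against mdx vehicle, 7 in mdx vehicle against wildtype vehicle and 9 in mdx GTx-026 against wildtype vehicle, beside 48.0%, 51.3% and 48.1% of all tested symbols. At an unadjusted p under 0.05 there were 3 in mdx GTx-026 against mdx vehicle, 3 in mdx vehicle against wildtype vehicle and 5 in mdx GTx-026 against wildtype vehicle, where the shares over all symbols were 3.07%, 12.7% and 12.6%. Their median log2 fold changes were 0.22, 0.38 and 0.75 in those comparisons, beside −0.01, 0.01 and −0.01 over all symbols. Haptoglobin, Hp, which binds free haemoglobin, had 29.2, 78.1 and 45.4 CPM in mdx GTx-026, 3.92, 1.13 and 41.5 CPM in mdx vehicle and 9.55, 1.20 and 0.586 CPM in wildtype vehicle. Its log2 fold change in mdx GTx-026 against wildtype vehicle was 3.85 (SE 1.03, adjusted p = 0.125). Cd163, the macrophage receptor for that complex, had 10.8, 8.38 and 17.1 CPM in mdx GTx-026, 4.61, 5.75 and 10.2 CPM in mdx vehicle and 4.21, 6.47 and 4.18 CPM in wildtype vehicle, with a log2 fold change of 1.11 in mdx GTx-026 against wildtype vehicle (adjusted p = 0.146). Groups did not overlap for either gene in that comparison. Haem oxygenase Hmox1, which opens the haem ring, had 10.2 to 14.3 CPM in mdx GTx-026, 5.89 to 8.03 CPM in mdx vehicle and 4.00 to 7.38 CPM in wildtype vehicle. Ftl1, a subunit of the iron store ferritin, had a log2 fold change of 0.92 in mdx vehicle against wildtype vehicle (adjusted p = 0.294), with overlapping groups. Fth1, the other and more abundant ferritin subunit, had −0.43 in that comparison (adjusted p = 0.410), with 1203 to 1460 CPM in mdx vehicle and 1653 to 1855 CPM in wildtype vehicle, which did not overlap.

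**Figure D4:**
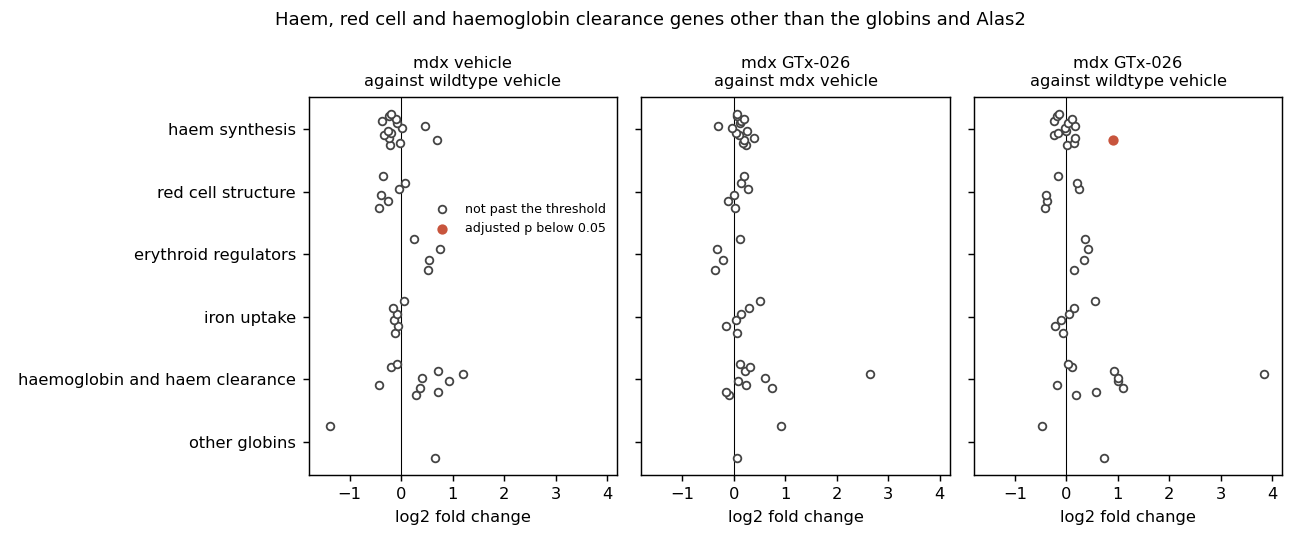
Log2 fold changes of the tested genes of 6 lists in the 3 comparisons, 1 point for each gene, filled where the adjusted p is below 0.05. The only filled point is Alad at 0.91 in mdx GTx-026 against wildtype vehicle, and the point farthest to the right is Hp at 3.85 in the same panel.

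Of 10 other globin genes only Mb and Cygb were tested. Myoglobin, Mb, the oxygen store of muscle fibres, had 677, 1707 and 3254 CPM in mdx GTx-026, 266, 1738 and 1223 CPM in mdx vehicle and 1119, 2600 and 3465 CPM in wildtype vehicle. Its order of libraries was not that of haemoglobin: mdx GTx-026 library 1, second for summed beta, was second lowest for Mb. Cytoglobin, Cygb, had 20.2 to 37.1 CPM in mdx GTx-026, 20.0 to 35.4 CPM in mdx vehicle and 15.3 to 15.8 CPM in wildtype vehicle, with no overlap between mdx and wildtype and adjusted p of 0.238 in mdx GTx-026 and 0.330 in mdx vehicle.

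Markers of other blood and vessel cells were looked at beside the globins, and their part in the globin levels was not tested. Of 9 neutrophil genes 0 were tested here, and of 10 lymphoid genes only Cd52. Of 8 platelet genes 4 were tested, with a summed level of 20.7 to 27.2 CPM in mdx GTx-026, 18.7 to 21.9 CPM in mdx vehicle and 15.9 to 17.7 CPM in wildtype vehicle. Pf4, a platelet chemokine, had a log2 fold change of 1.44 in mdx GTx-026 against wildtype vehicle (limma adjusted p = 0.0537). In that comparison the other tested platelet genes had 0.23 (Itga2b), −0.09 (Gp1ba) and −0.005 (Gp6). All 12 endothelial genes were tested, with a summed level of 224 to 394 CPM in mdx GTx-026, 212 to 331 CPM in mdx vehicle and 252 to 418 CPM in wildtype vehicle, and the library with the most globin, mdx GTx-026 library 2, stood at 237 CPM. In these lists and the muscle list 0 genes passed in any comparison. At an unadjusted p under 0.05 there were 1 platelet and 2 endothelial genes in mdx GTx-026 against wildtype vehicle and 1 of each in mdx vehicle against wildtype vehicle. Over all symbols the shares in those comparisons were 12.6% and 12.7%.

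The region around the beta-globin locus was examined in the same way. Within 5 Mb of Hbb-bs on chromosome 7, 94 other symbols were tested and 0 passed in any comparison by limma. At an unadjusted p under 0.05 there were 1 in mdx GTx-026 against mdx vehicle, 7 in mdx vehicle against wildtype vehicle and 10 in mdx GTx-026 against wildtype vehicle. These are 1.06%, 7.45% and 10.6% of the 94, beside 3.07%, 12.7% and 12.6% of all tested symbols. Their median log2 fold changes were −0.03, −0.05 and 0.02, beside −0.01, 0.01 and −0.01. These comparisons are between groups, and the copy shares also varied within each mdx group. Whether the neighbouring symbols vary with the shares was not tested.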

How the data were processed

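RNA of 9 gastrocnemius libraries was enriched for polyadenylated molecules and sequenced on an Ion Torrent Proton, per the labels' protocols. The submitters' processing notes name DESeq2 1.6.3, HTSeq 0.6.1p1, TopHat2 2.0.13, SAMtools 0.1.19 and Bowtie2 2.2.4 with the build GRCm38.p3, and give no role. Strand, annotation and the treatment of reads matching several genes are not given in the sources used here. Deposited values are a signal, the authors' scaled read number for each record and library. Nearly all values below 10000 were within 0.1 read of a whole multiple of 1 step per library, so listed reads were estimated by dividing by it, but they were not accepted as counts, no count model was run, and no counting interval is given.

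Only records above 0 in all 9 libraries were used, and they were summed by symbol. A gene without such a record, or absent from the deposited table, was not tested. The 4 records without a symbol (0.000646% of the total) were left out. Libraries were rescaled by an unweighted trimmed mean of log ratios (30% and 5% trimmed, factors 0.868 to 1.28). Genes were tested by limma 3.58.1 (R 4.3.3) on log2(CPM + 1), the prior variance following the mean, all 9 libraries in 1 model (6 residual and 3.585 prior degrees of freedom), two-sided, adjusted by Benjamini-Hochberg over 15372 symbols at 0.05. Each p thus rests also on the group outside its comparison. Fold changes on this scale understate low genes. The procedure was tested on simulated data. Columns name a group and a number only and were assigned to groups. The genes and the 11 gene lists were chosen with earlier results of these data known. Named were the 7 genes, list genes that passed (otherwise the 2 of each comparison with the largest change at 5 CPM or more), further list genes chosen after their values were seen, and the 8 genes most like summed globin. A gene of the red cell structure list is not reported here.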

Additional observations from a re-analysis of the deposited data

How the results depend on the processing

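The summed globin differences and the beta copy shares were recomputed with the deposited scaling, plain CPM, the higher record alone and each library left out, as far as each applies. Summed globin in mdx GTx-026 stayed above mdx vehicle in all of them (0.72 to 1.39 on the log2 scale) and above wildtype vehicle (0.46 to 1.29). In mdx vehicle against wildtype vehicle it ran from −0.63 to 0.15, so its sign rests on mdx vehicle library 1 and wildtype vehicle library 3. Counts of symbols past the threshold depended on the libraries. Between the mdx groups the count of 2 became 4 with the deposited scaling, 4 with plain CPM and 1 with the compared groups alone, and 0 to 2 when a library was left out (limma). It was 0 without mdx GTx-026 library 1 or mdx vehicle library 3, with 436 and 866 at an unadjusted p under 0.05. In mdx vehicle against wildtype vehicle the count of 53 became 6 with the compared groups alone and 7 to 103 without a library. In mdx GTx-026 against wildtype vehicle the count of 240 became 409 and 50 to 366. The cause was not tested. The Alad call was lost in 6 of 15 alternatives, those without a library of mdx GTx-026 or wildtype vehicle. The lowest levels rest on few estimated reads, 34 for Hbb-b2 and 57 for Alas2, both in wildtype vehicle library 2 and each summed over 2 records. No paired analysis was possible because the columns carry no number that ties libraries of different groups.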

Other observations

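Some genes near the beta-globin locus on chromosome 7 were looked at after their values were seen, and no test is attached to them. Mrpl48, a mitochondrial ribosome gene 3.28 Mb from Hbb-bs, had 28.9, 37.4 and 38.3 CPM in mdx GTx-026, 18.5, 56.5 and 37.1 CPM in mdx vehicle and 50.6, 47.9 and 54.2 CPM in wildtype vehicle. Clns1a, 6.13 Mb from Hbb-bs, had 22.3, 28.0 and 26.1 CPM in mdx GTx-026, 22.8, 35.7 and 25.7 CPM in mdx vehicle and 30.6, 36.6 and 37.8 CPM in wildtype vehicle. For both genes mdx vehicle library 2, the mdx library with the smallest share of Hbb-b1 and Hbb-b2, was the highest mdx library. Clns1a lies outside the 5 Mb examined above, and how many other symbols have this order was not counted. Trim30a, only 0.583 Mb from Hbb-bs, did not have this order. It had 7.76, 5.21 and 4.84 CPM in mdx GTx-026, 14.9, 4.12 and 4.96 CPM in mdx vehicle and 5.76, 4.68 and 2.42 CPM in wildtype vehicle, and mdx vehicle library 2 was the lowest mdx library.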
